A study of Naumovozyma castellii with 10 samples.

Results

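The mitochondrial genome of the budding yeast Naumovozyma castellii held 34 of the 8407 annotated features on which small RNA reads had been counted. They were taken as every feature, of any type, that lies on the mitochondrial sequence and not on a nuclear chromosome. They comprised 23 tRNAs, 8 mRNAs, 2 rRNAs and RPM1, the RNA subunit of mitochondrial RNase P. The study sequenced small RNAs from 10 cultures in 5 groups of 2 biological replicates, all of the genotype MATalpha ura3-1 ho, each genotype being a single strain. The dcr1 upf1 group carried dcr1 and upf1::kanMX6 and was untreated, and the upf1 group carried upf1::kanMX6 alone, also untreated. The dcr1 CHX group carried dcr1 and received cycloheximide (CHX) at 100 µg/mL for 15 min, and the WT CHX group received the same treatment without either mutation. The WT group carried neither mutation and was untreated. An untreated dcr1 strain is not analysed here, so each effect of dcr1 was measured in another background.

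Mitochondrial DNA in yeasts is transcribed by a phage-like RNA polymerase into long precursors that carry mRNAs, rRNAs and tRNAs together. RNase P cuts at the 5′ end of each tRNA and RNase Z at its 3′ end, so that tRNA excision also releases neighbouring transcripts. Dicer, encoded by DCR1, cuts double-stranded RNA into the small RNAs of the RNA interference pathway, which Saccharomyces cerevisiae has lost and N. castellii has kept. Upf1 is a helicase of nonsense-mediated decay, which acts on translating mRNAs in the cytosol. Cycloheximide blocks the elongation step of cytosolic ribosomes, whereas mitochondrial ribosomes resist it.

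Values are normalised densities, that is, reads per nucleotide of a feature multiplied by a library factor that the authors set from the small RNAs of an added Schizosaccharomyces pombe RNA. Reads on all features numbered 129559 to 148330 in the 4 libraries without Dicer and 3169072 to 6904640 in the 6 libraries with Dicer. Reads on mitochondrial features numbered 17703 to 41042 without Dicer and 6465 to 21249 with it. The deleted UPF1 (NAM7, chromosome 1, positions 1536668 to 1539646, minus strand) had 0 reads in all 4 upf1::kanMX6 libraries and 3 to 45 reads in the other 6. The WT libraries stood apart from each other on the mitochondrial features. WT replicate 1 exceeded WT replicate 2 in 33 of the 34 features, by a median of 1.69-fold, whereas the median log2 ratio of the same libraries over 155 nuclear tRNAs was -0.24. Comparisons with WT are therefore also given without each WT library.

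The features lay between positions 224 and 25542 of the mitochondrial sequence, covered 15551 nucleotides (nt) and did not overlap. All but tRNA-25248 lay on the plus strand. Each tRNA is named in the annotation by its start position, and which amino acid each carries is not given in the sources used here. The tRNAs were 71 to 86 nt long, and 19 of them were no longer than the 80 nt limit of the RNA cut from the gel. The longest run of tRNAs with no other type between them held 9, from tRNA-1936 to tRNA-3292 (positions 1936 to 3364).

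The tRNAs held the highest densities and the widest range. Their means over the 10 libraries ran from 0.0953 for tRNA-20085 to 17.2 for tRNA-17279, a 181-fold span with a median of 1.60, and 13 of the 23 had a mean above 1. The densities of tRNA-17279 (positions 17279 to 17350) were 20.4 and 30.7 in dcr1 upf1, 14.0 and 15.7 in upf1, 14.0 and 20.3 in dcr1 CHX, 11.7 and 11.3 in WT CHX, and 17.4 and 16.8 in WT. This tRNA was highest in dcr1 upf1 and lowest in WT CHX, and it supplied 19.3% to 32.9% of the summed mitochondrial tRNA density of a library. The densities of tRNA-224 (positions 224 to 297) were 21.9 and 12.9 in dcr1 upf1, 10.2 and 14.1 in upf1, 19.2 and 22.6 in dcr1 CHX, 8.57 and 9.84 in WT CHX, and 8.98 and 6.44 in WT. Unlike tRNA-17279 it had its highest group mean in dcr1 CHX and its lowest in WT, and its share of the tRNA density ran from 11.8% to 26.4%. The densities of tRNA-25139 (positions 25139 to 25210) were 12.8 and 14.6 in dcr1 upf1, 6.01 and 8.35 in upf1, 6.85 and 8.0 in dcr1 CHX, 4.11 and 4.17 in WT CHX, and 5.99 and 4.25 in WT. Its dcr1 upf1 libraries stood above all 8 others.

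The next tRNAs by mean density were tRNA-2713 (6.85), tRNA-4940 (6.10), tRNA-2251 (4.47), tRNA-17881 (2.21) and tRNA-1936 (2.11). The 4 tRNAs longer than 80 nt, of which tRNA-1936 and tRNA-17881 are members, had means between 0.873 and 2.21. At the low end, 6 tRNAs had a lower mean than the COX2 mRNA, and tRNA-20085 had 1 read in a WT CHX library. Across the 10 libraries, the log2 densities of tRNA-25139 followed those of tRNA-2713 most closely (Pearson r = 0.979), those of tRNA-17279 also followed tRNA-2713 (r = 0.842), and those of tRNA-224 followed tRNA-16936 (r = 0.782). These correlations are descriptions over libraries that share their scaling factors.

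The 2 rRNAs had similar densities. The shorter one, rRNA-18130 (1593 nt), had 0.578 and 0.559 in dcr1 upf1, 0.490 and 0.506 in upf1, 0.369 and 0.431 in dcr1 CHX, 0.266 and 0.329 in WT CHX, and 0.437 and 0.273 in WT. The longer one, rRNA-20319 (3638 nt), had 0.572 and 0.656 in dcr1 upf1, 0.582 and 0.50 in upf1, 0.437 and 0.622 in dcr1 CHX, 0.341 and 0.385 in WT CHX, and 0.584 and 0.299 in WT. Both had their highest mean in dcr1 upf1 and their lowest in WT CHX. The 10 nuclear rRNA features of the annotation had 0 reads in every library, so no nuclear counterpart could be set beside them.

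Among the mRNAs, all encoding subunits of the respiratory chain or ATP synthase except VAR1, a mitochondrial ribosomal protein, mean density spanned 88.0-fold. ATP9, the proton-carrying ring subunit of ATP synthase, was the highest, with 1.02 and 0.729 in dcr1 upf1, 0.682 and 0.619 in upf1, 0.581 and 0.663 in dcr1 CHX, 0.543 and 0.548 in WT CHX, and 1.06 and 0.459 in WT. Its WT libraries held both its highest and its lowest value. COX2, COX3 and COX1 encode the catalytic core of cytochrome c oxidase and had means of 0.507, 0.319 and 0.256. COX2 had 0.642 and 0.727 in dcr1 upf1, 0.516 and 0.651 in upf1, 0.451 and 0.530 in dcr1 CHX, 0.30 and 0.303 in WT CHX, and 0.641 and 0.304 in WT. COX3 had 0.477 and 0.422 in dcr1 upf1, 0.359 and 0.418 in upf1, 0.275 and 0.319 in dcr1 CHX, 0.185 and 0.206 in WT CHX, and 0.335 and 0.197 in WT. In both, WT replicate 1 was near the upf1 libraries and WT replicate 2 near the WT CHX libraries.

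COB, which encodes cytochrome b of complex III, had 0.655 and 0.450 in dcr1 upf1, 0.360 and 0.40 in upf1, 0.238 and 0.319 in dcr1 CHX, 0.176 and 0.184 in WT CHX, and 0.396 and 0.152 in WT. ATP6, a membrane subunit of ATP synthase, had 0.280 and 0.247 in dcr1 upf1, 0.175 and 0.182 in upf1, 0.125 and 0.165 in dcr1 CHX, 0.126 and 0.0917 in WT CHX, and 0.209 and 0.0857 in WT. In both COB and ATP6 the lowest library was WT replicate 2. VAR1 and ATP8, another membrane subunit of ATP synthase, had means of only 0.0121 and 0.00785. ATP8 had 3 and 2 reads in dcr1 upf1, 4 and 1 in upf1, 0 and 1 in dcr1 CHX, 0 and 4 in WT CHX, and 5 and 1 in WT, so no change in it was detectable at this depth with no library left out. RPM1 had a mean of 0.0298, with 0.0402 and 0.0326 in dcr1 upf1, 0.0324 and 0.0344 in upf1, 0.0309 and 0.0231 in dcr1 CHX, 0.0292 and 0.0203 in WT CHX, and 0.0302 and 0.0245 in WT. These rest on 15 to 59 reads per library.

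**Figure D1:**
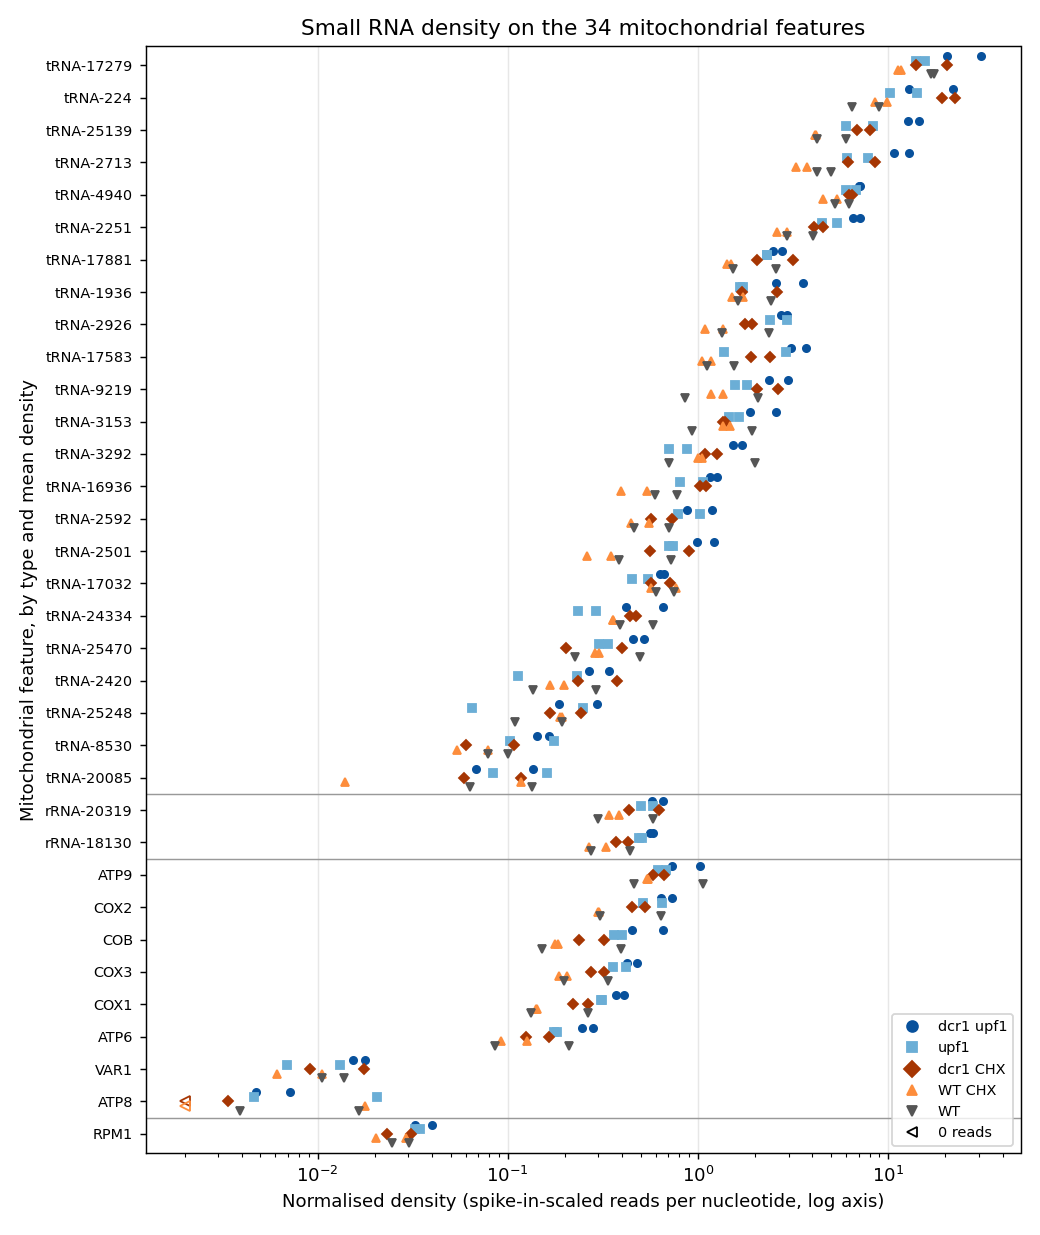
Normalised density (spike-in-scaled reads per nucleotide, log axis) of each of the 34 mitochondrial features, with 1 point per library and the features ordered by type and mean. The tRNAs span from 0.0953 to 17.2 in mean density, and the dcr1 upf1 libraries lie towards the right of most rows.

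Adjoining features were compared across the 4 gaps of 20 nt or less. tRNA-8530 ends where RPM1 begins, with a gap of 0 nt, and its mean of 0.106 was 3.57-fold that of RPM1. tRNA-2420 and tRNA-2501 lie 9 nt apart, and the mean of the downstream one, 0.681, was 2.90-fold that of the upstream one, 0.235. The other close pairs differed less, with tRNA-16936 at 1.39-fold tRNA-17032 across 10 nt and tRNA-2592 at 1.08-fold tRNA-2501 across 18 nt.

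The make-up of the mitochondrial reads varied little between libraries. The tRNAs took 46.5% to 58.1% of them, the rRNAs 21.3% to 29.2%, the mRNAs 18.2% to 24.2% and RPM1 0.10% to 0.232%. Both extremes of the tRNA share were in libraries with Dicer, namely upf1 replicate 1 and WT replicate 2.

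In the libraries without Dicer, the mitochondrial features held a large part of the reads on annotated features. Reads outside these features are not counted in the shares, and the nuclear rRNA features had 0 reads in every library. They took 31.2% and 29.0% of all feature reads in dcr1 upf1, against 0.211% and 0.232% in upf1. They took 12.9% and 16.1% in dcr1 CHX, against 0.204% and 0.242% in WT CHX, and 0.513% and 0.334% in WT. The 95% Wilson intervals reached at most 2.46% of the share itself to either side and cover counting error only. In these shares the libraries without Dicer did not overlap those with it, and the reads on all features differed as given above.

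**Figure D2:**
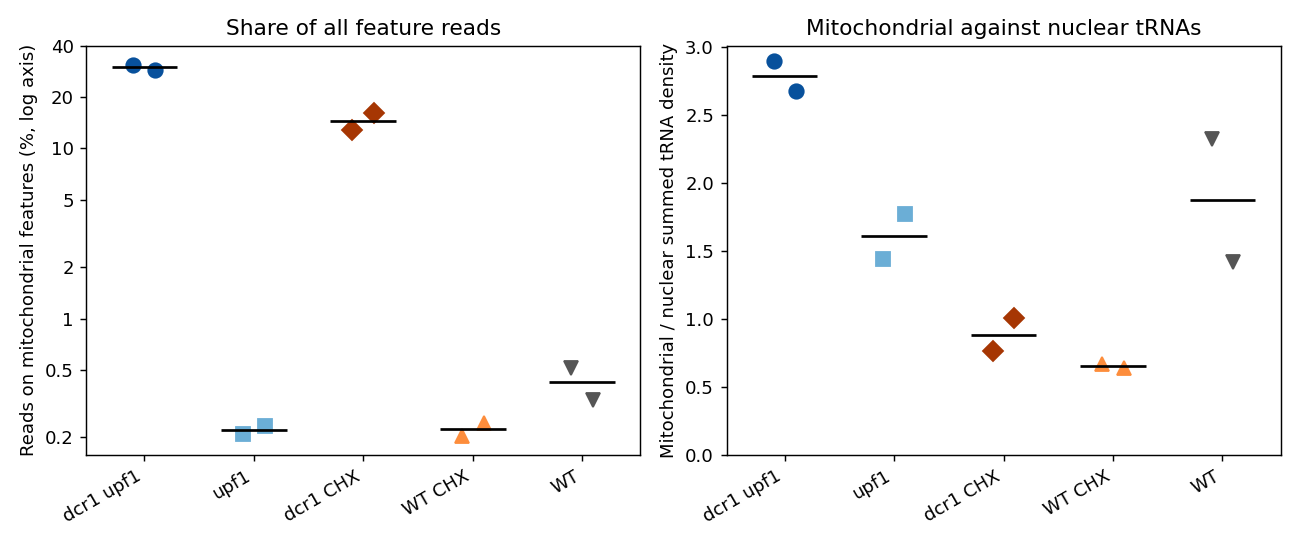
Left, percent of all feature reads that lie on mitochondrial features (log axis), and right, the ratio of summed mitochondrial to summed nuclear tRNA density. Points are libraries and lines are group means of 2 libraries. Shares in the libraries without Dicer lie at 12.9% or above, and all others at 0.513% or below.

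In dcr1 upf1 cells, 6 of the 34 mitochondrial features rose relative to upf1 cells, all of them tRNAs, and none fell. On the spike-in scale the background was the reverse, since 0.285% of the 7727 features tested were higher and 83.9% were lower (limma on log2 density, adjusted p under 0.05). The median log2 change was 0.48 over the mitochondrial features and -3.13 over all features tested, and 32 of the 34 changes were positive. By type, the medians were 0.60 for tRNAs, 0.37 for mRNAs and 0.19 for rRNAs. By limma none was lower at an unadjusted p under 0.05 either, and limma-voom on recovered reads also gave 0 lower. In bulk RNA, more cells holding a fragment and more of it per cell cannot be told apart.

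tRNA-3292 had 1.71 and 1.52 in dcr1 upf1, against 0.705 and 0.875 in upf1, a log2 change of 1.04 (SE 0.40, limma adjusted p = 0.0347). tRNA-24334 had 0.416 and 0.654 in dcr1 upf1, against 0.290 and 0.233 in upf1 (log2 change 1.00, SE 0.27, limma adjusted p = 0.00669). tRNA-25139, given above, rose by 0.95 (SE 0.23, limma adjusted p = 0.00336). In each of these the dcr1 upf1 libraries stood above both upf1 libraries. tRNA-1936 had 3.58 and 2.58 in dcr1 upf1, against 1.66 and 1.72 in upf1 (log2 change 0.85, SE 0.28, limma adjusted p = 0.0169). tRNA-2713 had 10.8 and 12.9 in dcr1 upf1, against 6.07 and 7.88 in upf1 (0.77, SE 0.22, limma adjusted p = 0.00937). tRNA-17279 rose by 0.75 (SE 0.24, limma adjusted p = 0.0141). Its values spread more in dcr1 upf1 than in upf1. tRNA-25139 was called in each of the 4 fits that left out 1 of these libraries. The other 5 lost the call in at least 1 of those fits, with log2 changes that stayed between 0.46 and 1.33.

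Over all types, both dcr1 upf1 libraries lay above both upf1 libraries in 24 features, no feature showed the reverse, and 10 overlapped. Such separation was not counted over the nuclear features, so these numbers have no background beside them. The summed density of the tRNAs was 107 ± 3.61 in dcr1 upf1 and 69.6 ± 9.98 in upf1 (SD, n = 2 each), a ratio of 1.53 ± 0.186 over library pairs. The ratio was 1.29 ± 0.133 for the mRNAs and 1.14 ± 0.0558 for the rRNAs, with no overlap of libraries in either. For RPM1 it was 1.09 ± 0.136 and the libraries overlapped. An exact two-sided permutation test of 2 libraries against 2 cannot give a p below 0.33, which is what the tRNA, rRNA and mRNA sums gave.

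Scaling each library on its summed nuclear tRNA, rRNA and snoRNA density in place of the spike-in moved the counts in this comparison. That sum, to which the nuclear rRNAs added 0 reads, was 48.6 and 58.1 in dcr1 upf1, against 94.3 and 88.4 in upf1. Of 37 nuclear snoRNAs tested on the spike-in scale, 23 were lower in dcr1 upf1 (median log2 change -1.58). The summed nuclear tRNA density was 35.9 and 40.8, against 43.4 and 43.2, so the reference itself was lower without Dicer. With this scaling, 32 of the 34 mitochondrial features and 122 of all 7678 features tested were called higher. The mitochondrial tRNA ratio was 2.63. The median log2 change of the mitochondrial features became 1.26, whereas that of all features tested became -2.90. How much the lower reference adds to these calls was not tested.

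In dcr1 CHX cells, 10 mitochondrial features rose relative to WT CHX cells and none fell, against a background of 0.608% higher and 87.1% lower. Of these, 9 were tRNAs and the last was the COX1 mRNA. The median log2 change was 0.56 over the mitochondrial features and -3.06 over all features tested, and 30 of the 34 changes were positive. By type, the medians were 0.61 for tRNAs, 0.59 for mRNAs and 0.48 for rRNAs. By limma none was lower at an unadjusted p under 0.05, and limma-voom gave 0 lower.

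tRNA-2501 had 0.558 and 0.894 in dcr1 CHX, against 0.260 and 0.348 in WT CHX, a log2 change of 1.23 (SE 0.34, limma adjusted p = 0.00677). tRNA-16936 had 1.11 and 1.03 in dcr1 CHX, against 0.395 and 0.537 in WT CHX (1.21, SE 0.23, limma adjusted p = 0.000849). tRNA-224 rose by 1.18 (SE 0.29, limma adjusted p = 0.00347), its dcr1 CHX libraries lying above both WT CHX libraries. tRNA-2713 had 6.18 and 8.51 in dcr1 CHX, against 3.26 and 3.73 in WT CHX (1.05, SE 0.22, limma adjusted p = 0.00149). COX1 had 0.221 and 0.264 in dcr1 CHX, against 0.14 and 0.142 in WT CHX (0.77, SE 0.30, limma adjusted p = 0.0342). COX1 was the only mitochondrial mRNA called in any of the 4 comparisons as fitted here. Among the abundant tRNAs, tRNA-25139 (0.84), tRNA-17881 (0.80) and tRNA-2251 (0.65) also rose, and the log2 changes of the remaining called tRNAs were 0.87 and 0.94. The call at 0.87 (limma adjusted p = 0.0464) was lost in 9 of the 12 alternative settings tried. tRNA-224, tRNA-2713, tRNA-16936 and tRNA-25139 stayed called when any library was left out. COX1 lost its call without dcr1 CHX replicate 2 and without either WT CHX library, with log2 changes of 0.64 to 0.78 there. Without WT CHX replicate 1, ATP8 was called lower, on 0 and 1 reads in dcr1 CHX against 4 in the single WT CHX library.

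The summed tRNA density was 81.7 ± 12.5 in dcr1 CHX and 48.3 ± 0.719 in WT CHX, a ratio of 1.69 ± 0.212. The ratio was 1.41 ± 0.255 for the rRNAs and 1.4 ± 0.149 for the mRNAs, and in all 3 types both dcr1 CHX libraries lay above both WT CHX libraries (exact two-sided permutation p = 0.33, the smallest possible). For RPM1 the ratio was 1.09 ± 0.303 and the libraries overlapped. In 23 single features the groups separated upwards, in 0 downwards, and 11 overlapped, again with no count over the nuclear features. Scaling on nuclear tRNA, rRNA and snoRNA left 6 features called higher, against 32 of all 7678 features tested, and a tRNA ratio of 1.66.

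**Figure D3:**
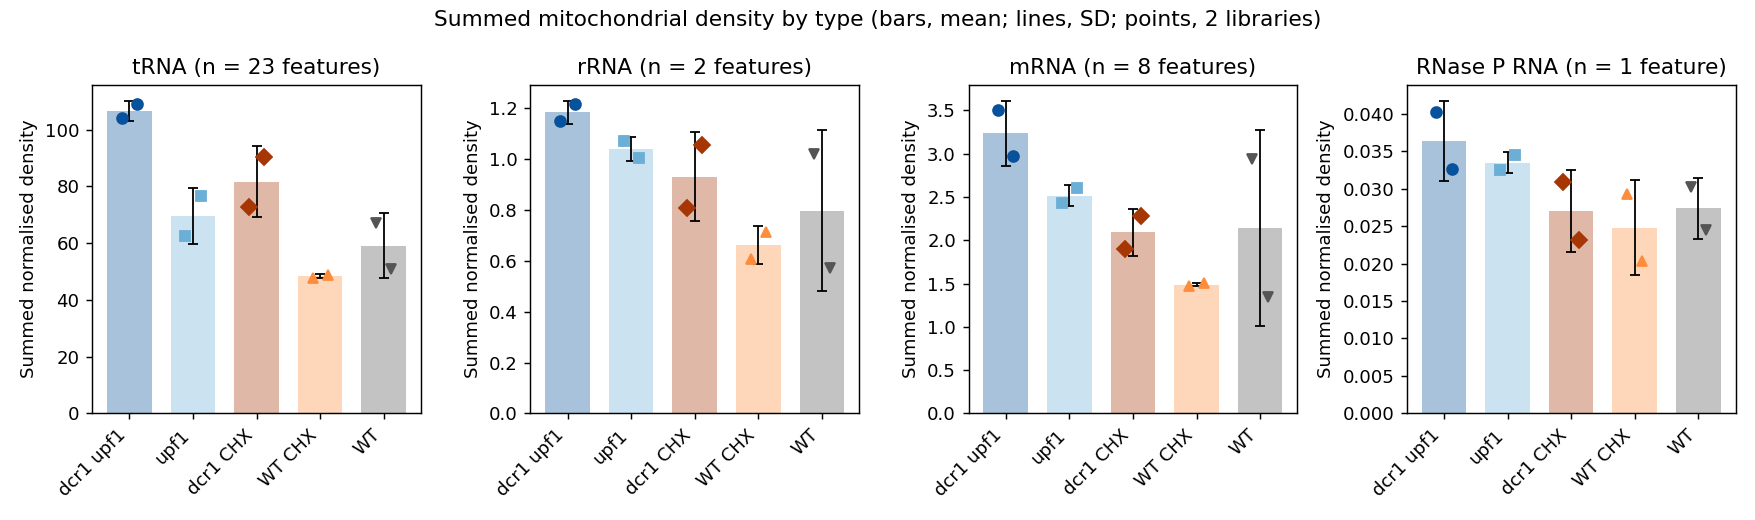
Summed normalised density of the mitochondrial features by type in each group; bars are means, lines are SD and points are the 2 libraries. The tRNA sum was 107 in dcr1 upf1 and 69.6 in upf1, and 81.7 in dcr1 CHX and 48.3 in WT CHX, with no overlap in either pair.

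The effect of losing Dicer was not shown to differ between the CHX and the upf1 background for any mitochondrial feature. The limma interaction called 0 of 34, with 1 at an unadjusted p under 0.05 and 0 by limma-voom, and the smallest adjusted p was 0.102, for tRNA-16936. Of all features tested, 18.4% were called with the higher value in the CHX background and 5.29% with the lower. Scaling on nuclear tRNA, rRNA and snoRNA gave 2 calls, tRNA-24334 and tRNA-17032, both with the lower value in the CHX background. Over all 7678 features tested, that scaling called 1194 higher and 451 lower.

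Loss of Upf1 in cells with Dicer was accompanied by few calls among mitochondrial features. Relative to WT, 4 tRNAs rose and 1 fell in upf1, against a background of 57.7% higher and 0.622% lower among 7879 features. The median log2 change was 0.35 over the mitochondrial features and 1.20 over all features tested. tRNA-2592 had 0.788 and 1.03 in upf1, against 0.70 and 0.460 in WT (log2 change 0.66, SE 0.24, limma adjusted p = 0.0460). Its call was lost in 9 of the 12 alternative settings tried. tRNA-224 rose by 0.66 (SE 0.21, limma adjusted p = 0.0291), tRNA-2713 by 0.59 (SE 0.16, limma adjusted p = 0.0159) and tRNA-2251 by 0.51 (SE 0.18, limma adjusted p = 0.0399). In all 4 the upf1 libraries lay above both WT libraries. tRNA-24334 had 0.290 and 0.233 in upf1, against 0.578 and 0.391 in WT, and fell by 0.87 on the log2 scale (SE 0.21, limma adjusted p = 0.00988). It was thus called lower in upf1 than in WT and higher in dcr1 upf1 than in upf1, and both calls use the same upf1 libraries.

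These changes depended on the WT library used. Without WT replicate 1, the median log2 change was 0.74 over the mitochondrial features and 1.24 over all features tested. Without WT replicate 2 these medians were -0.13 and 1.18, and without upf1 replicate 2 they were 0.25 and 1.27. Scaling on nuclear tRNA, rRNA and snoRNA gave 0 higher and 3 lower, against 3552 higher and 86 lower of all 7861 features tested. It moved the median log2 change to -0.04, while that of all features tested became 0.91. The reference sum was 94.3 and 88.4 in upf1, against 64.4 and 75.5 in WT, so the reference itself was higher in upf1. The summed tRNA density was 69.6 ± 9.98 in upf1 and 59.2 ± 11.4 in WT, a ratio of 1.18 ± 0.236 that became 0.890 under the other scaling. The mRNA ratio, 1.17 ± 0.589, was 0.855 without WT replicate 2 and 1.87 without WT replicate 1. The rRNA ratio was 1.30 ± 0.464, or 0.971 under the other scaling. In the tRNA, rRNA and mRNA sums, the upf1 and WT libraries overlapped (exact two-sided permutation p = 0.667 for tRNA). RPM1 lay higher in both upf1 libraries, with a ratio of 1.22 ± 0.155 (exact two-sided permutation p = 0.33) that became 0.924 under the other scaling.

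Cycloheximide, tested against the same 2 WT libraries, was accompanied by no rise of a mitochondrial feature and by a fall of 2. By limma 0 were higher, with 0 at an unadjusted p under 0.05 and 1 by limma-voom, against a background of 77.1% higher and 0.165% lower. The median log2 change was -0.32 over the mitochondrial features and 1.51 over all features tested, and 3 of the 34 changes were positive. tRNA-17279 had 11.7 and 11.3 in WT CHX, against 17.4 and 16.8 in WT, and fell by 0.57 on the log2 scale (SE 0.10, limma adjusted p = 0.00169). It was called lower in each fit that left out 1 of these libraries, but not in a fit to all 10 libraries (limma adjusted p = 0.0509). tRNA-2501 had 0.260 and 0.348 in WT CHX, against 0.724 and 0.384 in WT, and fell by 0.81 (SE 0.29, limma adjusted p = 0.0387). Its call was lost without WT replicate 1 or without either WT CHX library, with log2 changes between -1.26 and -0.35 when a library was left out.

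Here too the WT library mattered. Without WT replicate 1, 3 features were called higher and 1 lower in WT CHX, and without WT replicate 2, 0 were called higher and 20 lower. The summed tRNA density was 48.3 ± 0.719 in WT CHX and 59.2 ± 11.4 in WT, a ratio of 0.817 ± 0.132 with no overlap of libraries (exact two-sided permutation p = 0.33). The rRNA ratio of 0.829 ± 0.306 and the mRNA ratio of 0.695 ± 0.347 came with overlapping libraries, and without WT replicate 1 they were 1.15 and 1.11. The RPM1 ratio was 0.905 ± 0.221, also with overlap. Scaling on nuclear tRNA, rRNA and snoRNA gave 19 features lower, against 92 of all 7861 features tested. The tRNA ratio was then 0.451 and the median log2 change -1.15, against 0.79 over all features tested. The reference sum was 122 and 128 in WT CHX, against 64.4 and 75.5 in WT, so the reference itself was higher with cycloheximide. How much the higher reference adds to these falls was not tested.

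**Figure D4:**
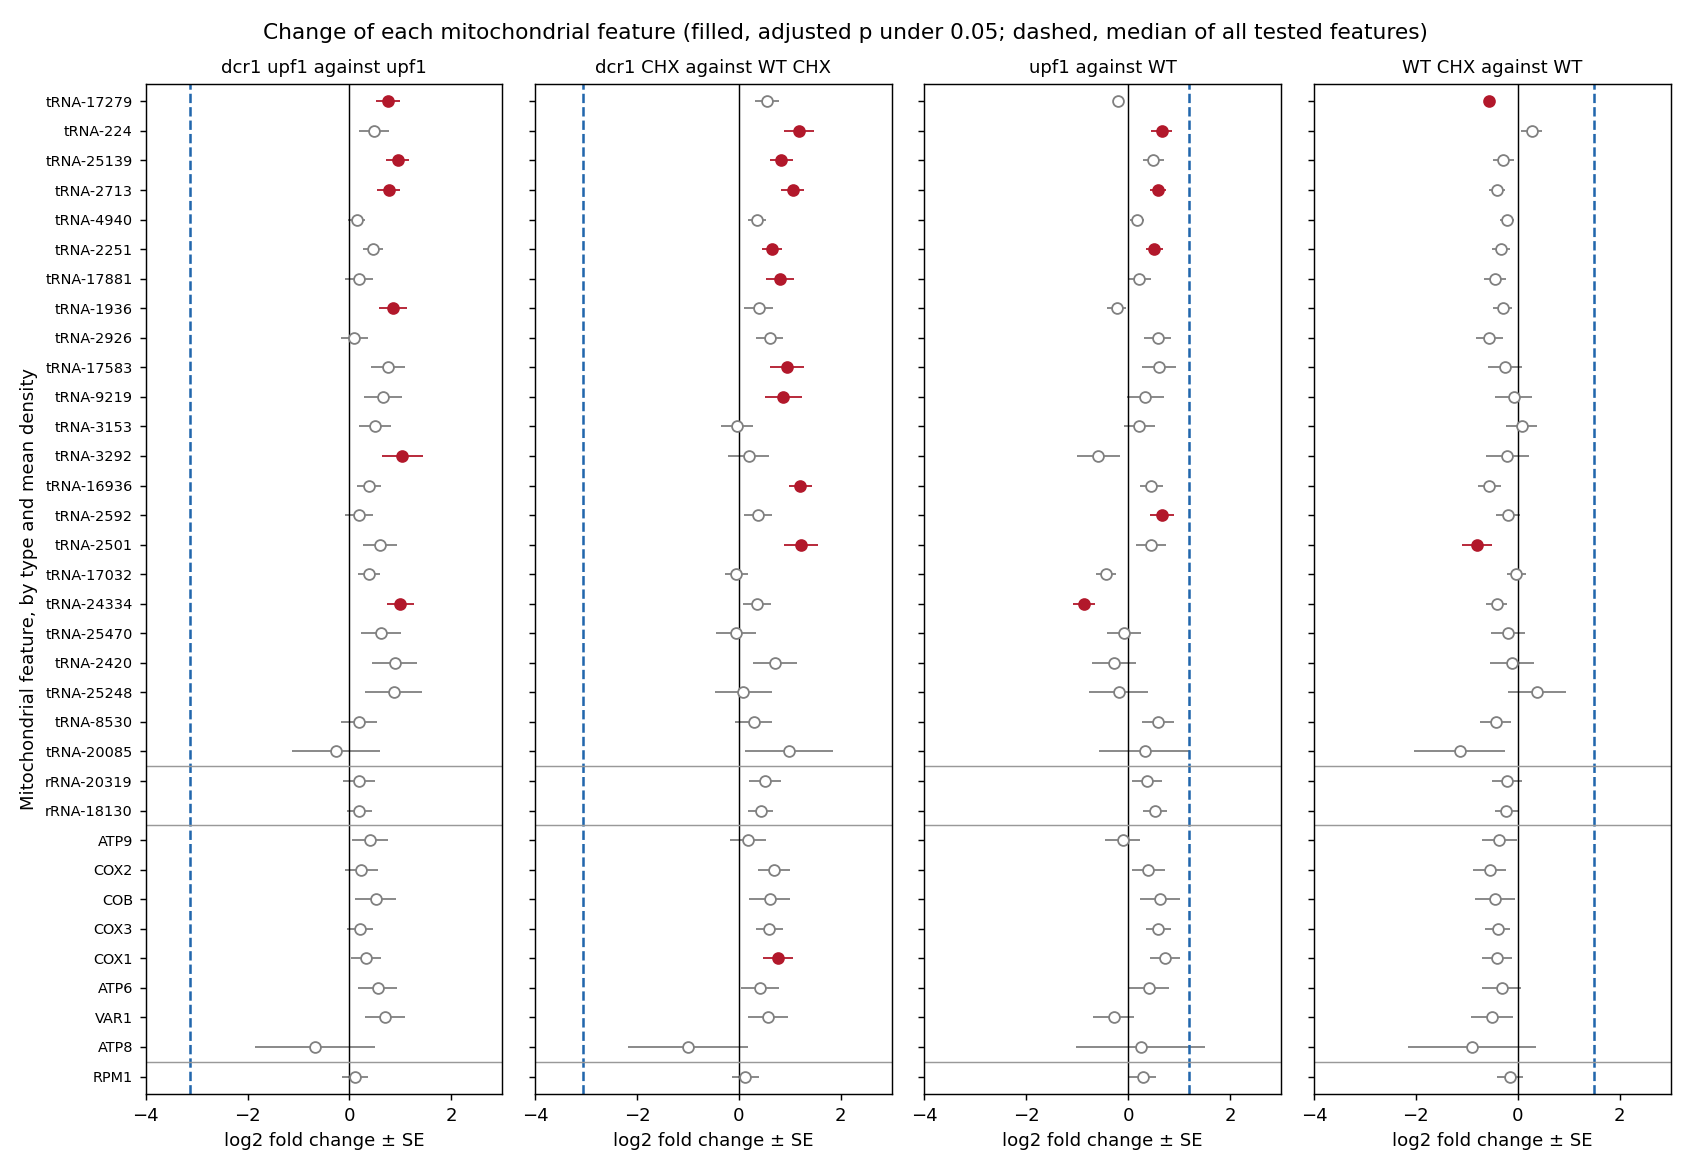
Log2 fold change ± SE (limma, log2 density) of each mitochondrial feature in the 4 comparisons, filled where the adjusted p is under 0.05; the dashed line is the median of all features tested. Calls number 6, 10, 5 and 2 from left to right, and the dashed medians lie at -3.13, -3.06, 1.20 and 1.51.

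Set in order of their group means, 29 of the 34 features were highest in dcr1 upf1 and 26 were lowest in WT CHX. The 5 others, named here after their values were seen, were tRNA-224 and tRNA-2420, highest in dcr1 CHX, tRNA-20085 and ATP8, highest in upf1, and tRNA-17032, highest in WT. This order rests on means of 2 libraries, and the upf1 and WT libraries, for example, overlapped in 19 features. Neither the order nor the overlap was counted over the nuclear features, so these numbers have no background beside them. The features of a library also share its scaling factor.

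The ratio of mitochondrial to nuclear tRNA density does not depend on the spike-in factor. It was 2.90 and 2.68 in dcr1 upf1, against 1.44 and 1.77 in upf1, a ratio of 1.73 ± 0.223. It was 0.765 and 1.00 in dcr1 CHX, against 0.670 and 0.641 in WT CHX, a ratio of 1.35 ± 0.213. In both pairs the libraries without Dicer lay higher (exact two-sided permutation p = 0.33). Against WT, with 2.33 and 1.42, the ratio was 0.858 ± 0.279 for upf1, whose libraries overlapped WT and whose direction turned to 1.13 without WT replicate 1. For WT CHX against WT it was 0.35 ± 0.105, with no overlap.

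Nuclear tRNAs had calls in both directions in each comparison. Their summed density was 71.3 and 76.2 in WT CHX, against 28.9 and 36.0 in WT, and 58 of the 218 tested were higher and 3 lower. In dcr1 upf1 against upf1, 11 nuclear tRNAs were higher and 36 lower, with a median log2 change of -0.04. In dcr1 CHX against WT CHX, 32 were higher and 12 lower, with a median of 0.21. Nuclear mRNAs had medians of -2.65 and -2.75 in these Dicer comparisons, with 83.6% lower in dcr1 upf1 and 89.3% lower in dcr1 CHX. Of the 281 nuclear tRNA features 50 had 0 reads in all libraries, and the rule for reads that match several copies is not stated.

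Nuclear genes whose products serve the mitochondrial genome were called lower in the cells without Dicer no more often than nuclear mRNAs at large, of which 83.6% were lower in dcr1 upf1 and 89.3% in dcr1 CHX. They were taken as 4 lists by symbol, with roles known from S. cerevisiae. Of 16 tested genes for mitochondrial transcription and RNA processing, 12 were lower and 0 higher in dcr1 upf1 than in upf1 (median log2 change -1.42), and 11 were lower and 0 higher in dcr1 CHX than in WT CHX (-1.0). SUV3, the helicase of the mitochondrial degradosome, had 0.00472 and 0.00581 in dcr1 upf1, against 0.125 and 0.127 in upf1 (limma adjusted p = 1.1e-07). ABF2, which packages mitochondrial DNA, had 0.00125 and 0 in dcr1 upf1, against 0.0903 and 0.0812 in upf1 (limma adjusted p = 4.0e-07). MSS116, a helicase for intron splicing, had 0.0342 and 0.0400 in dcr1 upf1, against 0.0431 and 0.0370 in upf1, values that overlap (limma adjusted p = 0.701).

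Of the 13 mitochondrial aminoacyl-tRNA synthetases, 10 were lower in dcr1 upf1 than in upf1 (median -1.35) and 10 in dcr1 CHX than in WT CHX (-0.85). MSW1, which charges mitochondrial tryptophan tRNA, had 0.00521 and 0.00428 in dcr1 upf1, against 0.684 and 0.627 in upf1 (limma adjusted p = 4.3e-09). Of 74 mitochondrial ribosomal proteins, 50 were lower in dcr1 upf1 (median -1.73) and 48 in dcr1 CHX (-1.78). MRPL20, of the large subunit, had 0.00330 and 0.00384 in dcr1 upf1, against 0.192 and 0.208 in upf1 (limma adjusted p = 1.9e-06). Of 16 translation activators of mitochondrial mRNAs, 13 were lower in dcr1 upf1 (median -1.74) and 12 in dcr1 CHX (-1.45). AEP1, needed for translation of the ATP9 mRNA, had 0.00572 and 0.00523 in dcr1 upf1, against 0.105 and 0.0792 in upf1 (limma adjusted p = 5.1e-06). By limma no member of the 4 lists was higher in either Dicer comparison, with 0 at an unadjusted p under 0.05 and 0 by limma-voom.

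Against WT, the same lists held rises and 0 falls by limma, with 0 lower at an unadjusted p under 0.05 and 0 by limma-voom. In upf1, 10 of 16 processing genes, 8 of 13 synthetases, 27 of 74 ribosomal proteins and 4 of 16 activators were higher, with median log2 changes of 1.06, 1.19, 0.68 and 0.76. In WT CHX the counts were 13, 11, 50 and 11, with medians of 1.65, 1.27, 1.37 and 1.35. Over all nuclear mRNAs tested, 54.8% were higher in upf1 and 81.4% in WT CHX, with medians of 1.06 and 1.58. The counts of ribosomal proteins and activators were thus below the share of nuclear mRNAs at large in both comparisons. DIA4, the mitochondrial seryl-tRNA synthetase, had 0.114 and 0.105 in WT CHX, against 0.00725 and 0.00555 in WT (limma adjusted p = 6.6e-05). MSS51 had 0.0318 and 0.0378 in WT CHX, against 0.0154 and 0.00975 in WT (limma adjusted p = 0.00420).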

How the data were processed

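Small RNA below 80 nt was sequenced from 10 libraries. Per the labels' protocols, 25 µg of total RNA was mixed with 1 µg of S. pombe RNA, whose centromeric small RNAs of 22 to 23 nt served as spike-in. The deposited values are a coverage signal, a density of reads per nucleotide that the authors scaled to that spike-in. The submitters' processing notes list Bowtie, Trim Galore and ASM294v2, a build of S. pombe. Not given in the sources used here are the N. castellii build, the read lengths counted and the rule for reads with several matches.

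From 8770 entries, 92 synthetic controls and 271 repeated intervals were removed, leaving 8407 features; the authors' 5 group means were not used. Density times length was a whole multiple of 1 step per library for 100% of values (tolerance 0.001), which gave the reads. Their counting limits the precision of low features, and intervals cover counting error only. limma 3.58.1 (R 4.3.3) was fitted with trend to log2(density + 0.00145) over all features with a mean at or above that pseudocount, with Benjamini-Hochberg adjustment over all of them; such fold changes understate changes of low features. All 34 mitochondrial features passed. Comparisons with WT used the 6 libraries with Dicer, the others all 10. The fit was also run on simulated data with changes larger than those of the mitochondrial features. That run cannot show how well changes as small as theirs are found. Sums were tested with exact permutation.

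The mitochondrial features named are all but the tRNAs, the 8 most abundant tRNAs and up to 4 called rises and falls per comparison. Up to 3 of each nuclear list are named, from those with the highest mean density over the 10 libraries. The features and lists were chosen with earlier results of these data known. MRS1 and CBS1 of the lists had no matching symbol. The edgeR test planned was not run, because the deposited values are densities and were treated as a signal. In its place, limma-voom was run on the recovered reads after the data were seen.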

Additional observations from a re-analysis of the deposited data

How the results depend on the processing

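No called feature changed sign under the 12 alternatives tried for each. With scaling on nuclear tRNA, rRNA and snoRNA, the summed ratios of upf1 to WT turned to 0.890 (tRNA), 0.971 (rRNA), 0.869 (mRNA) and 0.924 (RNase P RNA); calls became 0 higher and 3 lower for upf1 against WT, 19 lower for WT CHX against WT, 32 higher for dcr1 upf1 against upf1, 6 higher for dcr1 CHX against WT CHX, and 2 lower for the difference of the Dicer effects. Over all features tested, that scaling called 3552 higher and 86 lower for upf1 against WT and 92 lower for WT CHX against WT. It called 122 higher for dcr1 upf1 against upf1 and 32 higher for dcr1 CHX against WT CHX. With limma-voom, upf1 against WT had 13 higher and 2 lower, and WT CHX against WT 1 higher and 10 lower. Over all 7879 features, limma-voom called 4817 higher and 37 lower for upf1, and 6262 higher and 15 lower for WT CHX. Without the filter on low values, upf1 against WT had 1 higher and 1 lower, and WT CHX against WT 0 higher and 1 lower. Of all 8407 features, that fit called 4349 higher and 41 lower for upf1, and 5806 higher and 12 lower for WT CHX. With all 10 libraries fitted, upf1 against WT had 1 higher and 1 lower, and WT CHX against WT 0 higher and 0 lower. Of all 7727 features, that fit called 4545 higher and 53 lower for upf1, and 5962 higher and 10 lower for WT CHX. Leaving out 1 library at a time gave, for upf1 against WT, 0 to 18 higher and 0 to 5 lower, an mRNA ratio of 0.855 to 1.87 and a mitochondrial to nuclear tRNA ratio of 0.690 to 1.13. For WT CHX against WT it gave 0 to 3 higher and 1 to 20 lower, and ratios of 0.647 to 1.15 (rRNA), 0.506 to 1.11 (mRNA) and 0.741 to 1.07 (RNase P RNA). For dcr1 CHX against WT CHX it gave 4 to 10 higher and 0 to 1 lower, and an RNase P RNA ratio of 0.924 to 1.33; for dcr1 upf1 against upf1 that ratio was 0.975 to 1.20. The cause of these shifts was not tested.

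Over all features tested, same-numbered libraries did not deviate together (correlations from -0.0132 to 0.0202), and the main fits did not pair them. Whether same-numbered libraries were prepared together cannot be told from these values, which were not computed on the mitochondrial features alone. With a replicate block, calls were 3 higher and 1 lower for upf1 against WT, 0 and 2 for WT CHX against WT, 6 and 0 for dcr1 upf1 against upf1, 10 and 0 for dcr1 CHX against WT CHX, and 0 for the difference. Among all features tested these calls were, in the same order, 4471 and 57, 6021 and 15, 22 and 6458, and 49 and 6714. For the difference they were 1344 and 335. The planned edgeR test was not run.

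With 2 libraries a group, sums cannot reach a small p, and values of features with few reads, such as ATP8, are imprecise.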

Other observations

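The level of a mitochondrial feature was set beside its change, as a description. Across the 34 features, which are not independent replicates and share libraries, mean level and log2 change had a Pearson r of 0.41 and a Spearman rho of 0.24 for dcr1 upf1 against upf1, and 0.47 and 0.35 for dcr1 CHX against WT CHX. For upf1 against WT they were 0.13 and 0.12, and for WT CHX against WT 0.29 and 0.12. Within the 23 tRNAs, r and rho were 0.19 and 0.05 for dcr1 upf1 against upf1, 0.29 and 0.33 for dcr1 CHX against WT CHX, 0.25 and 0.28 for upf1 against WT, and 0.16 and -0.05 for WT CHX against WT. The share of tRNA-25139 in the summed mitochondrial tRNA density was 12.3% and 13.4% in dcr1 upf1, against 9.61% and 10.9% in upf1, and 9.40% and 8.84% in dcr1 CHX, against 8.60% and 8.55% in WT CHX. The share of tRNA-2713 was 10.3% and 11.8% in dcr1 upf1, against 9.71% and 10.3% in upf1, and 8.48% and 9.40% in dcr1 CHX, against 6.83% and 7.64% in WT CHX.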
